A study of Mus musculus with 12 samples.

Results

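Nerve injury and repair genes are transcripts that rise in a peripheral nerve or sensory ganglion when axons are cut or crushed. The set described here held 10 genes, chosen by name, and all 10 were found among the 49315 genes of the count table. Atf3, Jun and Sox11 encode transcription factors that are induced in injured sensory neurons, Jun also in injured Schwann cells. Sprr1a, Ecel1, Gap43 and Gadd45a are transcripts that injured neurons raise as their axons regrow. Shh, Olig1 and Gdnf are turned on in Schwann cells that have left the myelinating state and entered the repair state, in which they clear myelin and feed regrowing axons. Jun forms the AP-1 dimer with Fos or ATF family proteins, and ATF3 binds DNA as a dimer with partners of the same families.

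The tissue was the dorsal root ganglion (DRG), the cluster of sensory neuron cell bodies beside the spinal cord, taken from mice aged 10 months with 8 DRG per mouse. The 6 Nf2 mice carried Postn-Cre(+) and Nf2 flox/flox. The 6 DKO mice carried, besides Postn-Cre(+) and Nf2 flox/flox, also Fak1 flox/flox, where Fak1 is the gene annotated as Ptk2, and each genotype had 3 mice labelled male and 3 labelled female. All 12 mice therefore lacked Nf2 in cells with a history of Periostin-driven Cre, namely Schwann cells and their precursors, and no mouse with intact Nf2 was part of the comparison. Each library was the RNA of whole ganglia with all their cell types, in which fewer cells of a type and less RNA per cell cannot be told apart.

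The total count was 21129191 to 41250329 reads per library. Ptk2 had 65.8 to 75.5 CPM (read counts scaled to the library total) in Nf2 mice and 46.5 to 76.0 CPM in DKO mice (adjusted p = 0.529, edgeR quasi-likelihood test with Benjamini-Hochberg adjustment over all genes tested), and these whole-gene counts do not show which exons were lost. Mouse 702, an Nf2 library labelled male, had 496 CPM of Xist and 0.526 CPM of Ddx3y, where the other 5 libraries labelled male had at most 6.17 CPM of Xist and at least 76.0 CPM of Ddx3y. Values by sex follow the labels, and the tests by sex are also given without this mouse. The 15 sensory neuron markers and 10 Schwann cell markers were all tested, with 8697 to 11766 and 8838 to 12545 summed CPM per mouse. Between genotypes the skeletal muscle markers stood furthest apart, with a median log2 fold change of -2.09 over 12 markers. None of these 12 passed the threshold, and their summed CPM overlapped, with 19.2 to 1138 in Nf2 and 28.3 to 367 in DKO mice. All 10 macrophage markers had lower fitted levels in DKO mice. Among these macrophage markers C1qb, a complement component, passed the threshold (log2 fold change -0.71 ± 0.12 SE, adjusted p = 0.0138, edgeR).

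The start regions of Sprr1a and Jun are shown because Sprr1a held the most matches to the letters that AP-1 and ATF dimers are known to read, and because Jun is itself a subunit of these dimers. In these 300-base windows, 250 bases before and 50 after the annotated start, the capitals mark every match to TGANTCA, the AP-1 element, or TGACNTCA, the longer element read by dimers of Jun and ATF proteins. Both motifs were searched on both strands. TGANTCA reads the same on the other strand, TGACNTCA reads TGANGTCA there, and the motifs cannot both match at the same position. The sequences are from RefSeq on GRCm38.p6 and are written along the gene's strand.
Sprr1a (chr3:92485832-92486131, minus strand): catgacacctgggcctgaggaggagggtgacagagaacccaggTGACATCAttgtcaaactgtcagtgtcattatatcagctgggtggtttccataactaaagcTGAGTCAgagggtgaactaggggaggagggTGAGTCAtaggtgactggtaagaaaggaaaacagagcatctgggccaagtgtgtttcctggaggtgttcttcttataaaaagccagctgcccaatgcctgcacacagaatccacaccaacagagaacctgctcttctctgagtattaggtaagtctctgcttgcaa
Jun (chr4:95052173-95052472, minus strand): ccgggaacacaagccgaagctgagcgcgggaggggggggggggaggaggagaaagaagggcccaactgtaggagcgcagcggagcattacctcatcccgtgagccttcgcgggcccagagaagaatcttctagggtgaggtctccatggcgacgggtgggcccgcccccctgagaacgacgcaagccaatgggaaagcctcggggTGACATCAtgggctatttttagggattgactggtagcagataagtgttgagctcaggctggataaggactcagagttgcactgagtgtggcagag

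Sprr1a held TGAGTCA beginning 146 and 116 bases before the start and TGACATCA beginning 207 bases before it. Jun held TGACATCA beginning 45 bases before its start. A start region was found for 7 of the 10 members, those other than Gap43, Shh and Olig1. Among these, Gdnf held TGACTTCA, beginning 155 bases before 1 of its 2 listed starts, and Sox11 held TGATGTCA, a match on the other strand, beginning 42 bases before its start. Atf3, Ecel1 and Gadd45a held neither motif in this window, where only exact matches were counted. The Atf3 window, chr1:191183284-191183583 on the minus strand, lay inside the gene span, which runs to 191218039, and not at its outer end. Among 32851 mouse start regions of this length, 7.81% held TGANTCA and 8.83% held TGACNTCA on either strand. A match describes letters and not binding.

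The levels of the members were first placed in order per kilobase of exon (RPKM, CPM divided by the exon length in kilobases), since only a value per length can be compared between genes. Gap43, which encodes a protein of the growth cone membrane, was the highest with a mean of 102 RPKM over the 12 mice (range 79.0 to 132). Jun followed with 42.1 RPKM (38.0 to 47.7), and no mouse overlapped between Gap43 and Jun. Gadd45a, which encodes a stress-induced growth arrest protein, had 20.9 RPKM (14.1 to 28.7), below Jun in every mouse. Atf3 had 15.7 RPKM (10.8 to 17.9) and Shh, a secreted Hedgehog ligand, had 10.9 RPKM (9.05 to 14.0). The ranges of Gadd45a, Atf3 and Shh overlapped from each one to the next. A clear step separated these 5 genes from the rest, as the highest of the others had a mean of 2.07 RPKM. Below the step lay Sprr1a, which encodes a small proline-rich structural protein (2.07 RPKM), Sox11 (1.65), the transcription factor gene Olig1 (1.43), the neurotrophic factor gene Gdnf (0.767) and Ecel1, which encodes a neuronal endopeptidase-like protein (0.707). Each of these 5 overlapped its neighbour in the order.

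**Figure D1:**
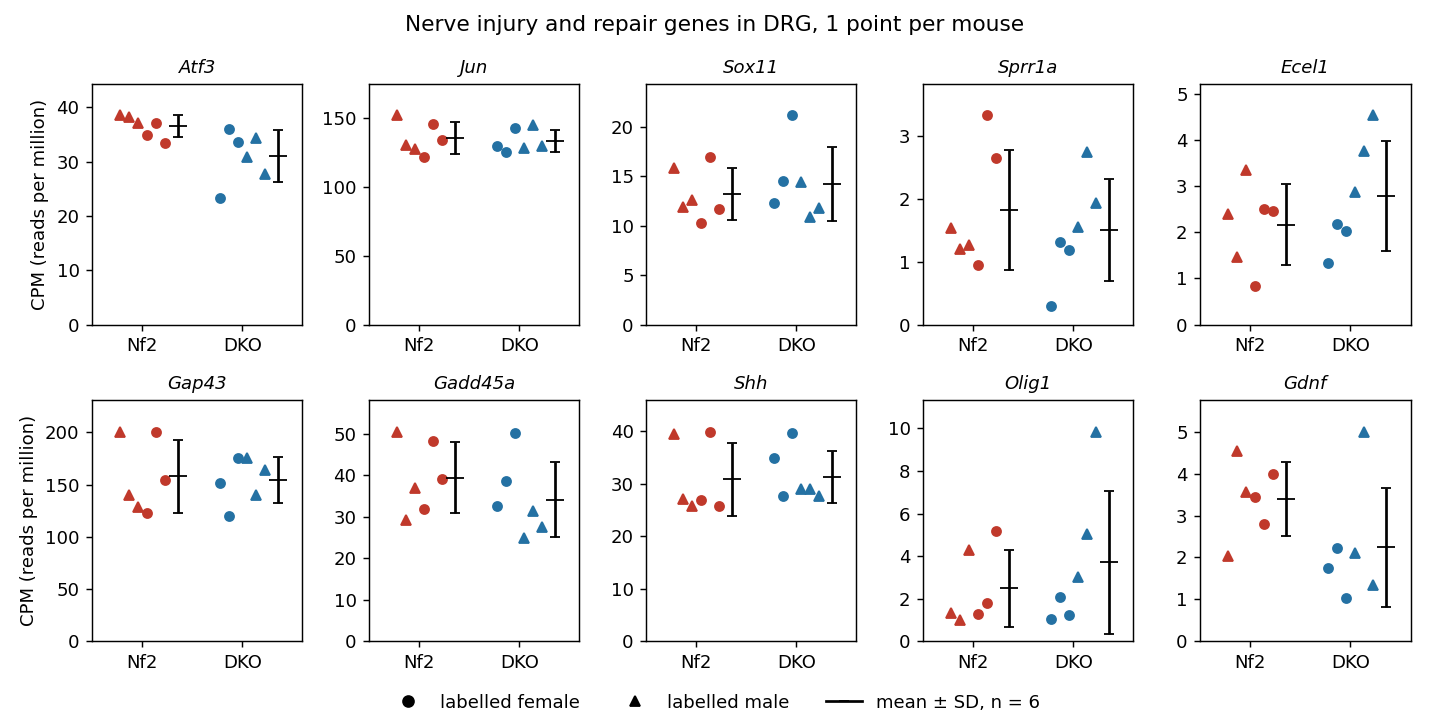
Level of each of the 10 members in the DRG of 6 Nf2 mice (red) and 6 DKO mice (blue), in CPM on axes that start at 0. Each point is 1 mouse (circle, labelled female, and triangle, labelled male), the black bar is the mean ± SD of 6 mice, and the genotypes overlap in all 10 panels.

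None of the 10 members passed the threshold between the genotypes (edgeR quasi-likelihood test, adjusted p below 0.05). All 10 were among the 18295 genes tested, of which 172 passed (0.94%), 68 higher and 104 lower in DKO mice. At an unadjusted p below 0.05 there were 2722 genes (14.9%), and 1 of them, Atf3, was a member. DESeq2 and limma voom also called 0 of the 10. The fitted level in DKO mice was higher for 4 members and lower for 6, with a median log2 fold change of -0.04 against 0.005 over all genes tested. In 356 genes (1.95%) the CPM ranges of the genotypes did not overlap, and no member was among them.

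Atf3, the transcription factor most often used to mark injured sensory neurons, had the smallest p of the members. Nf2 mice 649, 702, 884, 918, 1048 and 1049 had 38.5, 38.3, 37.0, 34.9, 37.0 and 33.3 CPM. DKO mice 885, 886, 887, 914, 915 and 917 had 23.3, 36.1, 33.7, 30.9, 34.3 and 27.8 CPM. All 6 DKO mice lay below the mean of the Nf2 mice, and 3 of them (885, 914 and 917) lay below every Nf2 mouse, while 886, 887 and 915 lay within the Nf2 range. Nf2 mice averaged 36.5 ± 2.01 CPM and DKO mice 31.0 ± 4.75 CPM (SD, n = 6), which is a log2 fold change of -0.26 ± 0.10 (SE, adjusted p = 0.236, edgeR). The mean log2(CPM + 4) differed by -0.22 with p = 0.0195 by the two-sided exact permutation test over 924 splits, whose smallest possible p is 0.00216. That p is unadjusted, and Atf3 is 1 of 10 members. By unadjusted p, Atf3 stood 1709th of the 18295 genes. The summed macrophage markers, which were 222 to 329 CPM in Nf2 and 184 to 243 CPM in DKO mice, moved in the same direction, and their part in the Atf3 values was not tested.

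Jun was the steadiest member, with a coefficient of variation of 7.17% over the 12 mice. It ranged from 121 to 152 CPM in Nf2 mice (median 132) and from 125 to 145 CPM in DKO mice (median 129.7). The DKO range lay entirely within the Nf2 range. The log2 fold change was -0.04 ± 0.07 (SE, adjusted p = 0.828, edgeR). Exons of Jun overlap those of the antisense gene Junos, and the strand setting of the counting is not given in the sources used here, so reads shared by the pair cannot be told apart.

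Sox11, which encodes a transcription factor of neuronal development and axon regrowth, was 10.3 to 17.0 CPM in Nf2 mice (median 12.3) and 10.9 to 21.2 CPM in DKO mice (median 13.4). Its highest value was that of DKO mouse 887, and the other 5 DKO mice lay within the Nf2 range. Sox11 had a log2 fold change of 0.09 ± 0.17 (SE, adjusted p = 0.856, edgeR), and it was -0.08 without mouse 887.

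The effector genes of injured neurons were next. Gap43 was 200.7 CPM in the highest Nf2 mouse (1048), 123 in the lowest (918) and 147 at the median. In DKO mice it was 120.3 to 175 CPM, with a median of 158. The Nf2 mice were spread more widely than the DKO mice, with an SD of 34.8 against 21.6 CPM, a difference in spread that was not tested. Its log2 fold change was -0.05 ± 0.14 (SE, adjusted p = 0.910, edgeR).

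Gadd45a was 29.3 to 50.6 CPM in Nf2 mice (median 38.1) and 24.8 to 50.1 CPM in DKO mice (median 32.1). Both genotypes held low and high mice, and the 2 DKO mice below all Nf2 mice were 914 and 917. Its log2 fold change was -0.22 ± 0.18 (SE, adjusted p = 0.624, edgeR), and with 1 mouse left out it ran from -0.38 (without 887) to -0.13 (without 649). Exons of Gadd45a overlap those of E230016M11Rik, so that part of these reads could belong to either gene. The relatives Gadd45b and Gadd45g had log2 fold changes of 0.05 ± 0.16 and -0.04 ± 0.22 (SE, adjusted p = 0.917 and 0.957, edgeR).

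Sprr1a and Ecel1 were low and uneven between mice. Sprr1a was 0.947 to 3.34 CPM in Nf2 mice (median 1.40) and 0.304 to 2.75 CPM in DKO mice (median 1.44), which is 8 to 91 reads per library. Its lowest value was that of DKO mouse 885, which also had the lowest Atf3. The log2 fold change of Sprr1a was -0.28 ± 0.42 (SE, adjusted p = 0.803, edgeR). With 1 mouse left out it ran from -0.54 (without 915) to -0.03 (without 1048), never past the threshold. Of the keratinocyte markers, a cell type in which Sprr1a is abundant in skin, 7 of 10 did not reach the minimum for testing, and Flg and Dsg3 had no read in any mouse. Ecel1 was 0.845 to 3.35 CPM in Nf2 mice (median 2.43) and 1.33 to 4.53 CPM in DKO mice (median 2.52). Its 2 highest mice were the DKO mice 917 and 915, and its log2 fold change was 0.34 ± 0.33 (SE, adjusted p = 0.685, edgeR). With 1 mouse left out it ran from 0.15 (without 917) to 0.51 (without 884), again never past the threshold. Ece1, which encodes an endothelin-converting enzyme of the same protease family, had a log2 fold change of -0.24 ± 0.08 (SE, adjusted p = 0.149, edgeR).

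**Figure D2:**
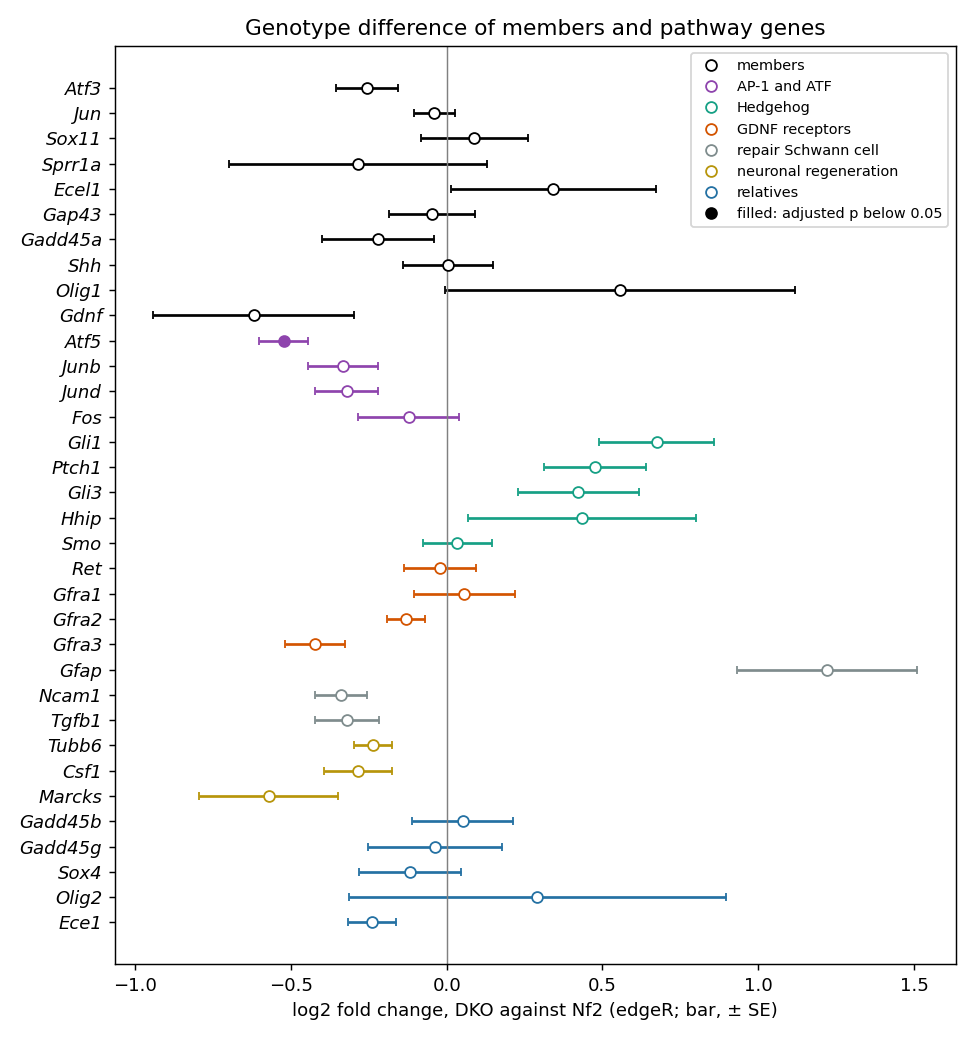
Log2 fold change in DKO against Nf2 mice with its SE from edgeR (n = 6 mice per genotype) for the 10 members and for 24 genes of their pathways, coloured by gene list. Atf5, the only filled point, passed the threshold, and the 10 members lie between -0.62 (Gdnf) and 0.56 (Olig1).

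Genes that work with the injury transcription factors were read from lists. Of 15 AP-1 and ATF partners, all tested, 1 passed and 12 had lower fitted levels in DKO mice (median log2 fold change -0.12). The gene that passed was Atf5, which encodes a stress-responsive transcription factor of the ATF family. Atf5 was 122 to 145 CPM in the Nf2 mice (median 129.5) and 80.2 to 109.6 CPM in the DKO mice (median 90.3). The groups did not overlap, and the log2 fold change was -0.52 ± 0.08 (SE, adjusted p = 0.00838, edgeR). Atf5 passed in all 12 fits that left out 1 mouse, and it did not pass in mice of 1 labelled sex alone (3 against 3). Jund and Junb, which encode further Jun proteins, had log2 fold changes of -0.32 ± 0.10 and -0.33 ± 0.11 (SE, adjusted p = 0.143 and 0.174, edgeR). Fos, the classical dimer partner of Jun, had -0.12 ± 0.16 (SE, adjusted p = 0.781, edgeR).

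Upstream of Jun, dual leucine zipper kinase and JNK carry the injury signal along the axon. None of 12 JNK and DLK signaling genes passed, and 10 had higher fitted levels in DKO mice (median log2 fold change 0.11). Mapk8, which encodes JNK1, was 60.8 to 77.0 CPM in Nf2 and 75.7 to 83.5 CPM in DKO mice, with 5 DKO mice above all Nf2 mice (log2 fold change 0.15 ± 0.05 SE, adjusted p = 0.202, edgeR). Dusp16, which encodes a JNK phosphatase, had 0.27 ± 0.11 (SE, adjusted p = 0.275), and Map2k4, which encodes a kinase that activates JNK, had 0.11 ± 0.05 (SE, adjusted p = 0.338, both edgeR).

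Of 32 genes of the neuronal regeneration program, 30 were tested and none passed, with 10 fitted levels higher and 20 lower in DKO mice (median log2 fold change -0.05). The smallest p-values belonged to Tubb6, Csf1 and Marcks. Tubb6, a tubulin gene, was 21.4 to 25.8 CPM in Nf2 and 18.7 to 21.8 CPM in DKO mice, with 5 DKO mice below all Nf2 mice (log2 fold change -0.24 ± 0.06 SE, adjusted p = 0.0904, edgeR). Csf1, the growth factor by which injured neurons act on microglia and macrophages, had -0.28 ± 0.11 (SE, adjusted p = 0.226, edgeR). Marcks, which encodes a membrane protein that binds actin, had -0.57 ± 0.22 (SE, adjusted p = 0.238, edgeR).

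Shh, the first of the repair Schwann cell genes, did not differ between the genotypes beyond the spread between mice. It was 25.8 to 40.0 CPM in Nf2 mice (median 27.0) and 27.7 to 39.7 CPM in DKO mice (median 29.0). The groups overlapped throughout, with 2 Nf2 mice (649 and 1048) and 1 DKO mouse (887) close to 40.0 CPM. Shh had a log2 fold change of 0.005 ± 0.14 (SE, adjusted p = 0.992, edgeR). Exons of Shh overlap those of 9530036O11Rik and Gm26894, so shared reads cannot be told apart.

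Among the other Hedgehog genes, Gli1 and Ptch1 had higher fitted levels in DKO mice, neither past the threshold. In this pathway Hedgehog ligands bind Ptch1 and release Smo, and Gli proteins then activate targets that include Gli1, Ptch1 and Hhip themselves. Of 16 listed genes, which mix ligands, receptors, Gli factors and inhibitors, 15 were tested and none passed. The fitted level was higher for 13 and lower for 2 (median log2 fold change 0.19). Gli1 was 8.26, 12.4, 14.7, 11.1, 14.6 and 10.8 CPM in Nf2 mice 649, 702, 884, 918, 1048 and 1049. In DKO mice 885, 886, 887, 914, 915 and 917 it was 17.6, 29.2, 19.7, 12.4, 17.6 and 19.7 CPM. Mouse 914 lay among the Nf2 mice and the other 5 DKO mice lay above all of them. The log2 fold change of Gli1 was 0.67 ± 0.18 (SE, adjusted p = 0.107, edgeR), and the adjusted p was 0.0170 with DESeq2. Over its 23 alternative fits, the adjusted p of Gli1 ran from 0.0170 to 0.580. Ptch1 was 42.2 to 81.6 CPM in Nf2 mice (median 69.1) and 63.2 to 124 CPM in DKO mice (median 95.8). Again 5 DKO mice lay above all Nf2 mice, here with mouse 887 as the exception, and the log2 fold change was 0.48 ± 0.16 (SE, adjusted p = 0.178, edgeR). Gli3, which encodes the mainly repressing Gli protein, had 0.42 ± 0.19 (SE, adjusted p = 0.331), and Hhip, which encodes a Hedgehog-binding inhibitor, had 0.43 ± 0.37 (SE, adjusted p = 0.637, both edgeR). Smo, the signal transducer, had 0.03 ± 0.11 (SE, adjusted p = 0.919, edgeR). The 7 astrocyte markers, Gfap among them, summed to 119 to 249.7 CPM in Nf2 and 159 to 373 CPM in DKO mice. None of the 7 passed and 6 had higher fitted levels, Aldh1l1 being lower (log2 fold change -0.31), and their part in the Gli1 and Ptch1 values was not tested.

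**Figure D3:**
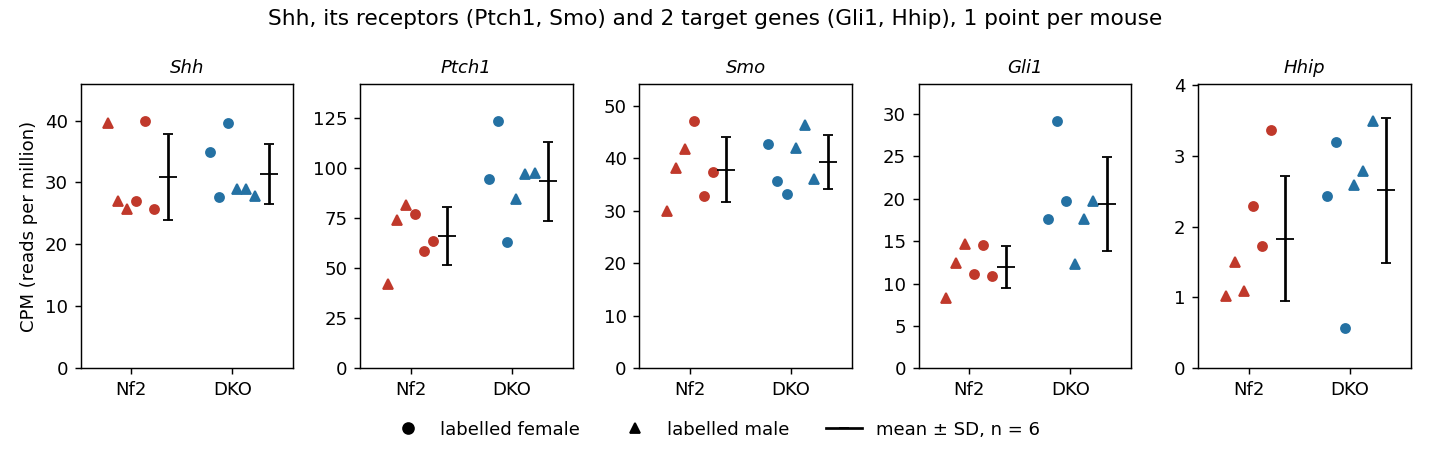
Levels of Shh, of Ptch1 and Smo, which encode its receptor and signal transducer, and of the target genes Gli1 and Hhip, in CPM on axes that start at 0, with 1 point per mouse and the mean ± SD of 6 mice per genotype. Shh spans the same range in both genotypes, and in the Ptch1 and Gli1 panels 5 of the 6 DKO mice lie above every Nf2 mouse.

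Gdnf, which encodes a survival factor for sensory and motor neurons, had the largest fitted difference of the members. Its CPM was 2.04, 4.54, 3.55, 3.45, 2.79 and 4.00 in Nf2 mice 649, 702, 884, 918, 1048 and 1049. In DKO mice 885, 886, 887, 914, 915 and 917 it was 1.75, 2.21, 1.04, 2.11, 5.00 and 1.34. Mouse 915 had the highest level of all 12 mice, and the other 5 DKO mice lay below the Nf2 mean, 3 of them below every Nf2 mouse. Nf2 mice averaged 3.40 ± 0.883 CPM and DKO mice 2.24 ± 1.42 CPM (SD, n = 6). The log2 fold change was -0.62 ± 0.32 (SE, adjusted p = 0.399, edgeR), and the two-sided exact permutation test gave p = 0.0974. Without mouse 915 the log2 fold change was -1.02 (adjusted p = 0.0748, edgeR) and the exact permutation p was 0.00866. Over the 12 fits that left out 1 mouse, it ran from -1.02 to -0.49 (without 887), never past the threshold. The fit without 915 was singled out after the values had been seen, and both permutation p-values are unadjusted. Gdnf had 22 to 129 reads per library.

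Ret, the signaling receptor for GDNF, was 375 to 597 CPM in Nf2 mice and 450.0 to 618 CPM in DKO mice, with a log2 fold change of -0.02 ± 0.12 (SE, adjusted p = 0.952, edgeR). Gfra1, the co-receptor that binds GDNF, had a log2 fold change of 0.06 ± 0.16 (SE, adjusted p = 0.909, edgeR). Of 8 other ligands and receptors of the GDNF family, Ret and Gfra1 included, 6 were tested and none passed, with 2 higher and 4 lower fitted levels. Gfra3, the co-receptor for artemin found on nociceptors, was 26.3 to 36.0 CPM in Nf2 and 18.9 to 27.8 CPM in DKO mice, with 5 DKO mice below all Nf2 mice (log2 fold change -0.42 ± 0.10 SE, adjusted p = 0.0564, edgeR). Gfra2, the co-receptor for neurturin, had -0.13 ± 0.06 (SE, adjusted p = 0.331), and Nrtn, which encodes neurturin, had 0.12 ± 0.28 (SE, adjusted p = 0.885, both edgeR).

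The genes of the repair Schwann cell list, which holds Gap43 itself, did not share a direction. Of its 18 genes, 17 were tested and none passed, with 7 higher and 10 lower fitted levels (median log2 fold change -0.05). Gfap, an intermediate filament gene of nonmyelinating and repair Schwann cells, satellite glia and astrocytes, was 13.7 to 73.3 CPM in Nf2 and 60.1 to 133 CPM in DKO mice (log2 fold change 1.22 ± 0.29 SE, adjusted p = 0.0700, edgeR). The astrocyte marker Aqp4 was 9.90 to 21.4 CPM in Nf2 and 10.0 to 33.5 CPM in DKO mice, and the part of astrocytes in the Gfap values was not tested. Ncam1, a cell adhesion gene of nonmyelinating Schwann cells and neurons, was 216 to 264 CPM in Nf2 and 169 to 215 CPM in DKO mice, with no overlap (log2 fold change -0.34 ± 0.08 SE, adjusted p = 0.0738, edgeR). Tgfb1 had -0.32 ± 0.10 (SE, adjusted p = 0.153, edgeR).

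Olig1, a transcription factor gene of the oligodendrocyte lineage that repair Schwann cells also express, was the most uneven member, with a coefficient of variation of 85.3%. It was 1.32, 0.975, 4.30, 1.28, 1.80 and 5.20 CPM in Nf2 mice 649, 702, 884, 918, 1048 and 1049. In DKO mice 885, 886, 887, 914, 915 and 917 it was 1.02, 2.09, 1.23, 3.01, 5.04 and 9.85 CPM. High mice occurred in both genotypes, 884 and 1049 among Nf2 and 914, 915 and 917 among DKO mice. The log2 fold change was 0.56 ± 0.56 (SE, adjusted p = 0.700, edgeR), and it was -0.01 without mouse 917. Olig2, its close relative, was 0.142 to 1.81 CPM, with a log2 fold change of 0.29 ± 0.60 (SE, adjusted p = 0.867, edgeR). Exons of Olig1 overlap those of Gm15966, so reads shared by that pair cannot be told apart.

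The same mice were high for some transcripts of the central nervous system. The summed CPM of Mog, Opalin, Hapln2 and Ermn, genes of myelinating oligodendrocytes, was 11.4 in mouse 884, 13.3 in 1049, 13.6 in 915 and 26.3 in 917, and 3.32 to 8.61 in the other 8 mice. On the log2(CPM + 4) scale, Olig1 had a Pearson r of 0.98 and a Spearman rho of 0.90 with this sum over the 12 mice. The r was 0.99 within the Nf2 and 0.99 within the DKO mice, and 0.96 without the 2 mice whose sum lay farthest from the median. Ecel1 had an r of 0.85 and a rho of 0.81 with the same sum, and an r of 0.70 without those mice. Its r was 0.67 within the Nf2 and 0.95 within the DKO mice. These 4 genes are a subset of the list of 10 oligodendrocyte markers, taken after the values had been seen.

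With the sum of all 10 markers the correlations were lower. Olig1 had an r of 0.74 (0.72 without the 2 farthest mice) and Ecel1 an r of 0.41 (0.34 without them). That sum was 267 to 391 CPM in Nf2 and 294 to 399.8 CPM in DKO mice. Of its genes, 9 were tested and none passed, with 7 higher and 2 lower fitted levels. Aspa, at 127 to 241 CPM, and Ugt8a, at 65.5 to 104 CPM, took most of it. Whether cells other than oligodendrocytes gave these reads was not tested. With the sum of the 7 astrocyte markers, Olig1 had an r of 0.87 (0.84 without the 2 farthest mice) and Ecel1 0.76 (0.80 without them). With the sum of the 10 spinal cord neuron markers, Olig1 had an r of 0.53 (0.24 without the 2 farthest mice) and Ecel1 0.71 (0.40 without them).

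The list of 10 spinal cord neuron markers did not single out these mice as a sum, which was 42.8 to 102.5 CPM in Nf2 and 53.4 to 103.4 CPM in DKO mice and highest in 917 and 649. Of its genes, 8 were tested and none passed, with 5 higher and 3 lower fitted levels. Tlx3, at 34.8 to 93.1 CPM, took most of the sum and was highest in mouse 649. That mouse also had the highest sum of sensory neuron markers (11766 CPM), and the part of sensory neurons in the Tlx3 values was not tested. Slc6a5, a glycine transporter gene of spinal cord neurons, was 9.36 CPM in mouse 884, 13.1 in 1049, 7.76 in 914, 8.07 in 915 and 19.6 in 917, and at most 2.73 CPM in the other 7 mice. Slc32a1, Gad1 and Gad2, genes of inhibitory neurons, were also highest in these 5 mice, and all 4 were picked from the list after their values had been seen. The correlations were singled out from 170 pairs of a member and a marker sum, the genes of a library share its depth and its mix of tissue, and no p is given. The part of these other cells in the Olig1 and Ecel1 values was not tested.

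**Figure D4:**
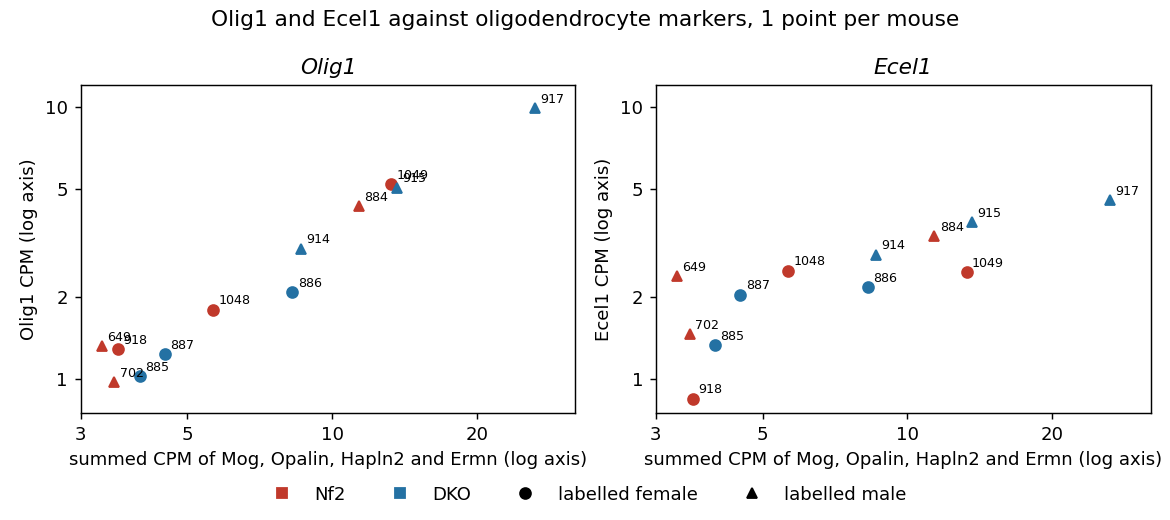
CPM of Olig1 (left) and Ecel1 (right) against the summed CPM of Mog, Opalin, Hapln2 and Ermn, 4 of the 10 oligodendrocyte markers, with logarithmic axes and 1 numbered point per mouse (red, Nf2, and blue, DKO). Both genotypes lie along 1 band, Olig1 more tightly (r = 0.98) than Ecel1 (r = 0.85, on the log2(CPM + 4) scale), and mouse 917 is highest in both panels.

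A second group of members varied together from mouse to mouse. Nf2 mice 649 and 1048 and DKO mouse 887 were the 3 highest mice for Sox11, Shh and Gadd45a, and they were among the 4 highest for Gap43. These mice also had the 3 highest sums of sensory neuron markers, 11766, 11116 and 10761 CPM, against 8697 to 10357 CPM in the other 9. Gap43 had a Pearson r of 0.88 and a rho of 0.85 with that sum, Shh 0.84 and 0.88, Jun 0.78 and 0.70, Sox11 0.70 and 0.66, and Gadd45a 0.56 and 0.32. Within the Nf2 and the DKO mice (n = 6 each), r was 0.95 and 0.77 for Gap43, 0.90 and 0.76 for Shh, and 0.98 and 0.22 for Jun. It was 0.94 and 0.57 for Sox11, and 0.85 and 0.35 for Gadd45a. Without the 2 mice farthest from the median of the sum, r was 0.85 for Gap43, 0.90 for Shh, 0.53 for Jun, 0.68 for Sox11 and 0.42 for Gadd45a. Gdnf ran the other way, with an r of -0.55 and a rho of -0.62. Of the 45 pairs among the members, Ecel1 with Olig1 (r = 0.85), Gap43 with Shh (0.76) and Sox11 with Shh (0.76) were the closest. These pairs too were chosen after the values had been seen and carry no p, and the share of sensory neurons in a library was not tested for its part in them. In limma voom, which weights each library by how closely it follows the fit, mice 649 and 887 had the lowest weights, 0.253 and 0.406. Mouse 1048 had 0.780, and DKO mouse 886 had 0.662. The part of library quality in these values was not tested.

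**Figure D5:**
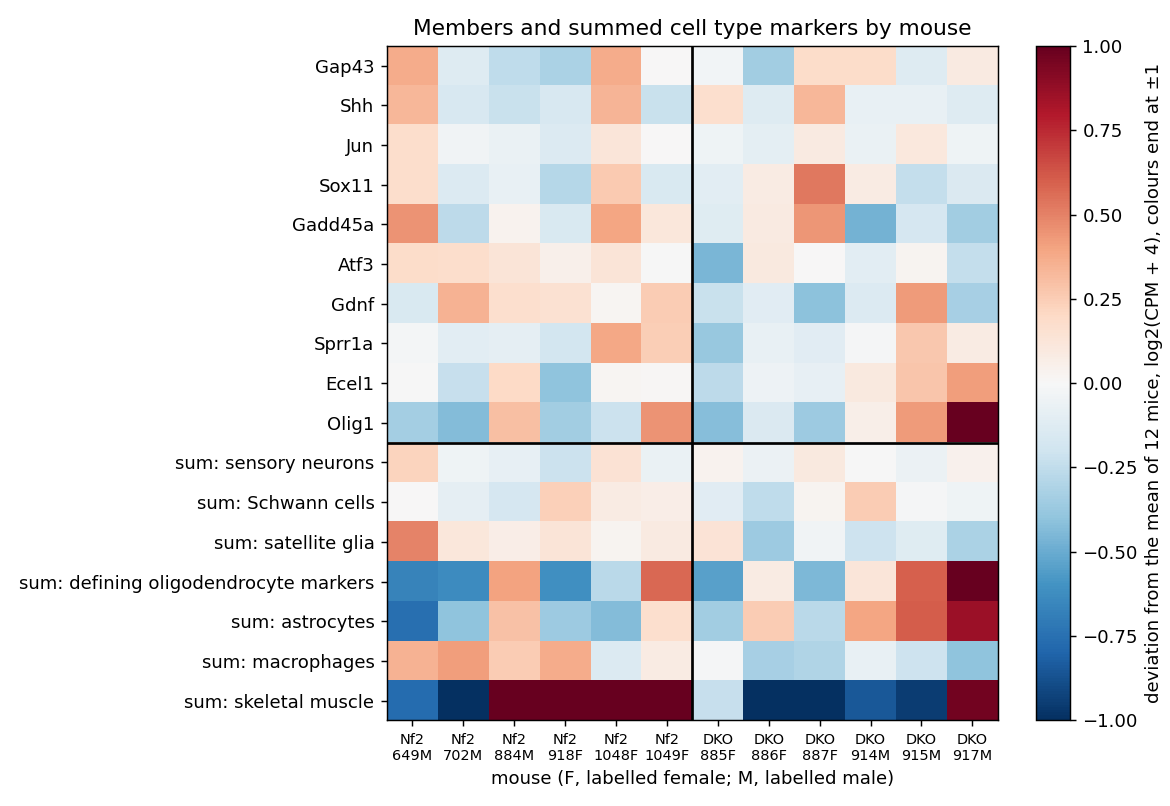
Deviation of each member (upper 10 rows) and of the summed markers of 7 cell types (lower rows) from its mean over 12 mice, on the log2(CPM + 4) scale, red above and blue below, with colours that end at 1 unit either way. Columns are mice, Nf2 left and DKO right. Gap43, Shh, Sox11 and Gadd45a are red together in mice 649, 1048 and 887, and Olig1 follows the row of the same 4 oligodendrocyte genes.

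Whether the other members follow Atf3 from mouse to mouse was asked with 9 correlations over the 12 mice. None passed the adjustment over the 9, whose adjusted p-values by permutation ran from 0.706 to 0.961 for Pearson r and from 0.705 to 0.974 for Spearman rho. The highest was Gdnf, with r = 0.46 (permutation p = 0.129) and rho = 0.39 (permutation p = 0.209), followed by Gadd45a, with r = 0.44 (permutation p = 0.157) and rho = 0.42 (permutation p = 0.178). Without mice 885 and 917, the farthest from the Atf3 median, r was 0.18 for Gdnf and 0.42 for Gadd45a. Within the Nf2 and the DKO mice (n = 6 each), Gdnf had r = -0.37 and 0.35 (exact permutation p = 0.478 and 0.490) and Gadd45a had r = 0.19 and 0.39 (exact permutation p = 0.743 and 0.461). The 5 genes closest to Atf3 after removal of the genotype means, among 15856 genes with a mean of at least 1 CPM, were Kansl3 (r = 0.94), Gatad2b (0.91), Fam53a (0.86), Actr5 (0.82) and Bsdc1 (0.82). These 5 were picked as the highest of the 15856 correlations over 12 mice, and no p is given for them. None of these 5 is a member or stands in the lists of partner genes.

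The genotype difference was also compared between mice labelled male and female. None of the members passed the interaction test, in which 2 of 18295 genes passed (0.0109%). At an unadjusted p below 0.05 there were 874 genes (4.78%), Sprr1a and Olig1 among them. In mice labelled male, Sprr1a was 1.20 to 1.53 CPM in the 3 Nf2 mice (1.26 to 1.53 without mouse 702). It was 1.55 to 2.75 CPM in the 3 DKO mice, so that the ranges nearly touched. In mice labelled female the order of the means was the opposite, 2.31 CPM in Nf2 and 0.936 CPM in DKO mice, with overlap. The interaction of Sprr1a was 1.89 ± 0.72 on the log2 scale (SE, adjusted p = 0.920, edgeR), and 1.82 without mouse 702 (adjusted p = 0.776, edgeR). That of Olig1 was 2.29 ± 0.93 (SE, adjusted p = 0.920, edgeR), and 1.94 without mouse 702. The DKO mice labelled male (914, 915 and 917) were those with the higher sums of the 4 oligodendrocyte genes among DKO mice. Without mouse 702, 936 of 18295 genes had an unadjusted interaction p below 0.05 (edgeR). Sprr1a and Gadd45a were among them and Olig1 was not (adjusted p = 0.776 for these 3 genes, edgeR). Between the labelled sexes with genotype as a covariate, 3 genes passed (0.0164%) and none was a member. Ecel1 had the smallest p of the members there, with a level 0.66 ± 0.29 higher in males on the log2 scale (SE, adjusted p = 1.00, edgeR). Without mouse 702 it was 0.81 ± 0.28 (SE, adjusted p = 1.00, edgeR), 8 genes passed and again none was a member.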

How the data were processed

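Poly(A) RNA of DRG from 12 mice was sequenced for the authors by a commercial provider, 1 library per mouse. The deposited values were raw read counts per Ensembl gene, without normalization. The submitters' processing notes name Trimmomatic 0.36, STAR 2.5.2b, featureCounts, Subread 1.5.2 and GRCm38. The settings for strand and for reads with several matches are not given in the sources used here.

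Groups and sexes followed the labels. Genes were kept by filterByExpr with genotype as the group, scaled by TMM and compared by the quasi-likelihood F test of edgeR 4.0.16 in R 4.3.3, with Benjamini-Hochberg adjustment over all 18295 genes and a threshold of 0.05. CPM used library totals. Exon lengths and gene positions came from GENCODE M21, which held 99.5% of the 49315 gene identifiers. For single genes, mean log2(CPM + 4) was compared by exact permutation (two-sided), and correlations with Atf3 by 100000 permutations. DESeq2 1.42.0, limma 3.58.1 (voom), other scalings and filters, sex as a covariate, subsets of mice and each mouse left out were alternatives. Every p-value was computed with the mouse as the unit and judges a difference or a correlation against the variation between mice. The edgeR fit was tested on simulated data, and the DESeq2 and voom fits were not.

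The members and gene lists were chosen with earlier results of these data known. Named were all members, the genes of a partner list that passed or else the 3 with the smallest p, their direct partners, and the 5 genes most correlated with Atf3. Genes of the marker lists named in the text were chosen after their values were seen. The list name Ccn3 was matched to Nov. Protein sequences were not used here. In GRCm38, the members lay at chromosome 1, 191170296 to 191218039 (Atf3, minus strand), 4, 95049034 to 95052222 (Jun, minus), 12, 27334264 to 27342574 (Sox11, minus), 3, 92483952 to 92485895 (Sprr1a, minus), 1, 87147655 to 87156521 (Ecel1, minus), 16, 42248442 to 42340651 (Gap43, minus), 6, 67035096 to 67037457 (Gadd45a, minus), 5, 28456815 to 28467256 (Shh, minus), 16, 91269772 to 91271933 (Olig1, plus) and 15, 7810846 to 7837575 (Gdnf, plus).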

Additional observations from a re-analysis of the deposited data

Results flagged for a closer look

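Gdnf in DKO mouse 915 stood apart from the other 5 DKO mice. Its log2(CPM + 4) was 3.17, against 2.64 in the nearest DKO mouse, and this gap took up more of the range of the 6 mice than Dixon's 95% limit for 6 samples allows. The level was 5.00 CPM, the highest of all 12 mice. In all, 20 groups of 6 mice were examined (10 members in 2 genotypes), and chance sets 1 mouse apart in about 1 of 20 such groups. The cause was not tested.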

How the results depend on the processing

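No member passed the threshold in any of the 23 alternative fits, and the adjusted p of Atf3 ran from 0.104 to 0.872 over them. The number of genes that passed was 172, and it was 831 with DESeq2, 521 with limma voom, 57 in labelled females, 2 in labelled males and 9 in labelled males without mouse 702, an alternative chosen after seeing the data. It ran from 81 (without mouse 918) to 217 (without mouse 887) when 1 mouse was left out, and it was 114 without 702, 111 without 884, 98 without 1049, 95 without 885, 109 without 914 and 87 without 917.

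Some fold changes turned direction, none of them past the threshold. Among them were those of Olig1 and Sprr1a, which were 0.56 and -0.28 in the fit of all mice. With 1 mouse left out, the log2 fold change ran from -0.0752 to 0.00207 for Jun, from -0.0777 to 0.163 for Sox11, from -0.109 to 0.0388 for Gap43, from -0.0902 to 0.0947 for Shh and from -0.0114 to 0.899 for Olig1. The differences in mean log2(CPM + 4) then ran from -0.0482 to 0.0151 for Jun, from -0.0284 to 0.130 for Sox11, from -0.0799 to 0.0585 for Gap43 and from -0.0327 to 0.102 for Shh. In labelled males the log2 fold change was -0.16 for Sox11, 0.59 for Sprr1a and -0.16 for Shh, and without mouse 702 these were -0.24, 0.52 and -0.24. In labelled females it was -0.0583 for Ecel1, 0.0277 for Gadd45a and -0.92 for Olig1. It was 0.0453 for Gap43 with limma voom and -0.00134 for Shh with sex as a covariate. The sex interaction of Gap43 was -0.00112 without mouse 702. The cause of these turns was not tested.

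The correlations with Atf3 that turned were, without mice 885 and 917, those of Sox11 (r = -0.00730), Sprr1a (-0.0876) and Shh (0.20). In Nf2 mice alone they were those of Sprr1a (-0.25), Ecel1 (0.14), Gap43 (0.35), Shh (0.52) and Gdnf (-0.37), and in DKO mice alone that of Ecel1 (0.22). Among partner genes, Gfap, Ncam1 and Gfra3 passed with DESeq2 and with limma voom, Tubb6 and Gli1 passed with DESeq2 and not with limma voom, Gfap passed without mouse 649 or 884, and Gfra3 passed without 887. No paired analysis was possible because the mouse numbers of the genotypes are not shared. Sprr1a, Ecel1 and Gdnf had 8 to 129 reads per library.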
